A study of Mus musculus with 2 samples.

Results

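The 7 genes described here, Pla2g4a, Ptgs1, Ptgs2, Ptgis, Ptges, Ptgds and Hpgd, encode enzymes that make or inactivate prostaglandins, and were taken by symbol from the 31053 genes counted. They were measured by single-cell RNA sequencing (scRNA-seq) in primary vascular smooth muscle cells (VSMCs) from the aorta of wild type mice on a pure C57BL6/N background, after 5 days in culture in full medium. There are 2 libraries of this 1 condition, labelled biological replicates 1 and 2, and they are the replicates of all values (n = 2). Each preparation pooled aortae of several mice, no genetic label marked the smooth muscle lineage, and p-values measure only the spread between these libraries.

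Prostanoids are made from arachidonic acid, which a phospholipase such as cytosolic phospholipase A2 (Pla2g4a) frees from membranes. The cyclooxygenases Ptgs1 (COX-1) and Ptgs2 (COX-2) turn it into an unstable endoperoxide, from which terminal synthases make the individual products, prostacyclin by Ptgis, prostaglandin E2 by Ptges and prostaglandin D2 by Ptgds, while Hpgd starts the inactivation of prostaglandins. In the vessel wall, prostacyclin is known as a vasodilator that inhibits platelets, Ptgs1 as a constitutive and Ptgs2 as an inducible enzyme.

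Cells were taken as barcodes with 300 or more genes detected, 3000 or more unique molecular identifiers (UMIs, each standing for 1 captured mRNA molecule) and under 20% mitochondrial UMIs, which left 4866 and 6824 cells with medians of 22234.5 and 16310 UMIs. They were divided by gates on genes that are not members. Myh11, the smooth muscle myosin heavy chain, marks contractile cells, and Myh11-high cells (5 or more Myh11 UMIs) were 424 in replicate 1 and 871 in replicate 2, against 3041 and 5062 Myh11-low cells (0 or 1). Il1rn, the interleukin-1 receptor antagonist, defined 913 and 300 Il1rn-positive cells with 0 or 1 Myh11 UMIs. Endothelial cells (ECs), with at least 2 UMIs in at least 2 of Pecam1, Cdh5, Cldn5 and Gja4, were 102 and 141 cells. The libraries held 127949633 and 132561822 UMIs over all barcodes. The classes share no cell, and the 273 and 432 cells with 2 to 4 Myh11 UMIs are given as an intermediate. The gates held against genes outside them. All 9 EC markers were higher in ECs than in Myh11-low cells, with a median log2 fold change of 7.37, and the 8 contractile markers had a median of 2.33 in Myh11-high over Myh11-low cells, where 4 passed the threshold of an adjusted p under 0.05 and all 8 did with the library as a block. The Il1rn-positive class was less uniform, since the summed level of 10 macrophage markers was 72.3 and 45.5 CPM there (counts per 1e06 UMIs of the class) against 11.8 and 11.2 CPM in Myh11-low cells, and none of the markers was at 0 in it. Only 9 barcodes occurred among the cells of both libraries.

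Pla2g4a and Ptgs2 are neighbours on chromosome 1, Pla2g4a at chr1:149829618-149961290 on the minus strand and Ptgs2 at chr1:150100031-150108227 on the plus strand (GRCm38, GENCODE M21), with 138740 bases between the gene models. On chromosome 2 lie Ptgds (chr2:25466709-25470046, minus), Ptges (chr2:30889471-30929863, minus), Ptgs1 (chr2:36230426-36252272, plus) and Ptgis (chr2:167191805-167240604, minus), and Hpgd is at chr8:56294585-56321043 on the plus strand. The only overlap with another counted gene is that of Ptgis with Gm14291 on the opposite strand. The promoter sequences of the members that were expressed and have a RefSeq entry (GRCm38.p6) are shown to set Ptgs1, Ptgs2 and Ptges, whose fold changes between the Myh11 classes differed in sign, beside Pla2g4a, the neighbour of Ptgs2 with similar levels in both. Each runs 5′ to 3′ on the strand of the gene and covers the 250 bases before the RefSeq start, which for Pla2g4a is the first of 2 starts listed. Capitals mark matches, on either strand, to the E-box of helix-loop-helix factors, searched as CANNTG. They also mark the GC box that Sp1 binds, spelled GGGCGG in the search. Also searched for were TATAAA, the motif of the TATA box, the AP-1 motif as TGANTCA on either strand, the core TGACG of a cAMP response element, and the CArG box of serum response factor.
Pla2g4a, chr1:149961291-149961540, minus strand: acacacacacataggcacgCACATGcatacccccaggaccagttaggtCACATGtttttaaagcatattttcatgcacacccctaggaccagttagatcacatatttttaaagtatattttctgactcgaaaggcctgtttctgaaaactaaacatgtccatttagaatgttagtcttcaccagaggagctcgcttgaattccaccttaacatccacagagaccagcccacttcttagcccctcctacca
Ptgs1, chr2:36230176-36230425, plus strand: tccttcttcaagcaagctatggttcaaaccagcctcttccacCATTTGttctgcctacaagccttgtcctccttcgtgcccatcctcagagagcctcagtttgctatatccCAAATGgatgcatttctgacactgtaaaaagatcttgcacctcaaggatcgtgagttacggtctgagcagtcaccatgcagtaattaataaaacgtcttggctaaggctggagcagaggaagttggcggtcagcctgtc
Ptgs2, chr1:150099781-150100030, plus strand: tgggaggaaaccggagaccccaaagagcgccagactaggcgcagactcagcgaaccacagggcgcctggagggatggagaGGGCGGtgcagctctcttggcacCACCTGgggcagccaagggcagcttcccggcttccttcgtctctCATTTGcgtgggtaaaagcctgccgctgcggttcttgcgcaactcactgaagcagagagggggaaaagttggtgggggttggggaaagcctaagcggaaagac
Ptges, chr2:30903298-30903547, minus strand: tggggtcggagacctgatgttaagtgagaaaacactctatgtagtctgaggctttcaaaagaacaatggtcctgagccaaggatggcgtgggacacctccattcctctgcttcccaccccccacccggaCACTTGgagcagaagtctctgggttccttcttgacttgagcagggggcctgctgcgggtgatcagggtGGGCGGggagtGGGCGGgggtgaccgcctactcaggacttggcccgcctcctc
E-boxes occurred in all 4 windows, 2 each in Pla2g4a, Ptgs1 and Ptgs2 and 1 in Ptges, and in 66.2% of all 32851 RefSeq promoters of this length. The GC box was found at 170 bases before the start of Ptgs2 and at 53 and 42 bases before that of Ptges, but not in the windows of Ptgs1 and Pla2g4a, and 32.7% of all promoters hold it. No CArG box (1.47% of all promoters), TATA (12.4%), AP-1 (6.75%) or TGACG motif (17.8%) lay in these 4 windows. Only the 250 bases before the RefSeq start were searched. A motif after that start or further upstream would be missed, so these genes may hold such motifs outside the windows. The second Pla2g4a start, at chr1:149922440-149922689 and not printed here, had a TATA match at 200 and an E-box at 193 bases before it. GC content was 43.2% for Pla2g4a, 48.0% for Ptgs1, 61.6% for Ptgs2 and 59.6% for Ptges.

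Pla2g4a, which starts the pathway, was found at similar levels in the 3 classes other than ECs. Its CPM was 90.3 and 80.0 in Myh11-high cells of replicates 1 and 2, 73.5 and 80.1 in Myh11-low cells, 70.6 and 84.6 in Il1rn-positive cells, and 42.8 and 66.2 in ECs. The ECs were lowest in both libraries, and the other classes overlapped. In the quasi-likelihood test of edgeR, adjusted over all 13404 genes tested by the method of Benjamini and Hochberg, ECs were 0.82 lower than Myh11-high cells on the log2 scale (SE 0.20, adjusted p = 0.0286). With the library as a block this p was 0.00828, and that against Myh11-low cells went from 0.0762 to 0.0269 in edgeR at a log2 fold change of -0.61 without and -0.62 with the block. With cells matched on total UMIs the latter difference was -0.23 on the log2 scale (edgeR adjusted p = 0.501). Single libraries differed, with -1.28 and -0.50 against Myh11-high cells and -0.94 and -0.46 against Myh11-low cells in replicates 1 and 2. The call between ECs and Myh11-high cells was lost in edgeR in a fit to the sums of these classes alone (adjusted p = 0.0745), without cycling cells (0.0604) and with cells matched on total UMIs (0.0514). Among the ECs, 39.2% and 29.8% of cells had a Pla2g4a UMI, against 65.3% and 60.9% of Myh11-low cells, but ECs were shallower, with medians of 14629 and 10250 UMIs against 22021 and 15675. After thinning each cell to 3000 UMIs, the shares were 11.2% and 12.3% in ECs and 18.1% and 19.8% in Myh11-low cells, and free RNA alone would give 4.62% and 3.64% of ECs a UMI.

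The cyclooxygenase genes had fold changes of opposite sign between the Myh11 classes, of which that of Ptgs1 passed the threshold. Ptgs1 was at 23.5 and 10.2 CPM in Myh11-high cells, 52.1 and 61.9 CPM in Myh11-low cells, 62.6 and 66.5 CPM in Il1rn-positive cells, and 28.5 and 25.7 CPM in ECs. Both Myh11-high values and both EC values lay below all values of the other classes. Ptgs1 was lower in Myh11-high than in Myh11-low cells by 1.70 on the log2 scale (SE 0.35), and the difference passed the threshold in edgeR (adjusted p = 0.0454). Within replicate 1 the log2 difference was -1.11, and within replicate 2 it was -2.54, so that its size differed between the libraries. The edgeR p was 0.00554 with the library as a block, while the call was lost with only the sums of these classes in the fit (0.167), without the 5% deepest cells (0.0966), without cycling cells (0.0600), with free RNA subtracted (0.0522) or with each gate applied alone (0.0627). Between Il1rn-positive and Myh11-low cells the log2 fold change of Ptgs1 was 0.13 (SE 0.34), within the error. For ECs against Myh11-low cells it was -1.18 (SE 0.38, edgeR adjusted p = 0.0691, 0.0364 with the block), and for ECs against Myh11-high cells 0.52 (SE 0.39, edgeR adjusted p = 0.389).

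Ptgs2 was highest in Myh11-high cells of both libraries. Its CPM was 103 and 69.2 there, 49.7 and 51.6 in Myh11-low cells, 44.3 and 55.4 in ECs and 32.6 and 41.8 in Il1rn-positive cells. The lower Myh11-high value exceeded every value of the other classes, among which Myh11-low cells and ECs overlapped (log2 -0.13, SE 0.23, edgeR adjusted p = 0.728, and 0.20 with cells matched on total UMIs). Against Myh11-low cells, Ptgs2 in Myh11-high cells had a log2 fold change of 0.83 (SE 0.22), which did not pass the threshold without a block (edgeR, adjusted p = 0.0849) and passed it with the block (0.0203), without cycling cells (0.0481) and in DESeq2 (0.0218). It was 1.09 within replicate 1 and 0.47 within replicate 2. ECs were lower than Myh11-high cells by 0.97 on the log2 scale (SE 0.23), which passed in edgeR (adjusted p = 0.0263) but not in a fit to the sums of these classes alone (0.0585). In that contrast replicate 1 gave a log2 difference of -1.42 and replicate 2 of -0.55. The log2 fold change of Il1rn-positive against Myh11-low cells was -0.50 (SE 0.22, edgeR adjusted p = 1.00), and lower in both libraries.

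The prostacyclin synthase Ptgis had the clearest difference of the members. Its level was 426 and 434 CPM in Myh11-high cells, 205 and 248 CPM in ECs, 165 and 174 CPM in Myh11-low cells and 99.8 and 119 CPM in Il1rn-positive cells. These 4 ranges did not overlap, and the class means of 430, 227, 170 and 109 CPM had SDs of 6.08, 30.8, 6.48 and 13.4 CPM (n = 2). Ptgis was 2.65-fold higher in Myh11-high than in Myh11-low cells (log2 1.41, SE 0.13), with an edgeR adjusted p of 0.00286, and the within-library log2 differences of 1.40 and 1.37 were alike. All 15 alternative fits kept this call, with adjusted p from 2.50e-19 in DESeq2 to 0.0305 in edgeR with only the sums of these classes. ECs were lower than Myh11-high cells by 1.10 (SE 0.13, edgeR adjusted p = 0.00185), again in all 14 alternatives run for that contrast. ECs and Myh11-low cells, the neighbours in this order, differed by 0.31 (SE 0.13), with an edgeR adjusted p of 0.140 that became 0.0299 with the block. Il1rn-positive cells were 0.69 below Myh11-low cells (SE 0.13) in the fit, with an edgeR adjusted p of 0.543 and 0.0276 with the block, and 0.00257 in DESeq2. The log2 difference was -0.77 in replicate 1 and -0.68 in replicate 2, and it was -0.68 without the cells that had macrophage markers. A Ptgis UMI was found in 90.3% and 96.7% of Myh11-high cells and in 81.5% and 78.6% of Myh11-low cells, and after thinning to 3000 UMIs in 55.6% and 68.3% against 34.3% and 36%.

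Ptges, the inducible prostaglandin E synthase, had low counts. It was at 13.1 and 8.92 CPM in Myh11-low cells, 11.3 and 6.45 CPM in Il1rn-positive cells, 7.45 and 1.61 CPM in Myh11-high cells, and 6.11 and 0.571 CPM in ECs, where the latter value is 1 UMI in 141 cells and 0.0640 of the Myh11-low level (exact 95% interval from 0.00162 to 0.358). Replicate 1 was above replicate 2 in all 4 classes, so that neighbouring classes overlapped over the libraries while their order was the same in each. The log2 fold change of Myh11-high against Myh11-low cells was -1.26 (SE 0.75), with an edgeR adjusted p of 0.436 without and 0.0247 with the library block. For ECs against Myh11-low cells it was -1.78 (SE 1.00), with edgeR adjusted p of 0.257 and 0.0497. The sizes rest on the library, since the log2 differences in replicates 1 and 2 alone were -0.77 and -2.37 for Myh11-high cells and -1.26 and -3.97 for ECs, the last on 1 UMI. Cells with a Ptges UMI made up 21.4% and 12.6% of Myh11-low cells and 13.2% and 2.87% of Myh11-high cells, where free RNA alone would give 1.48% and 0.693%.

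**Figure D1:**
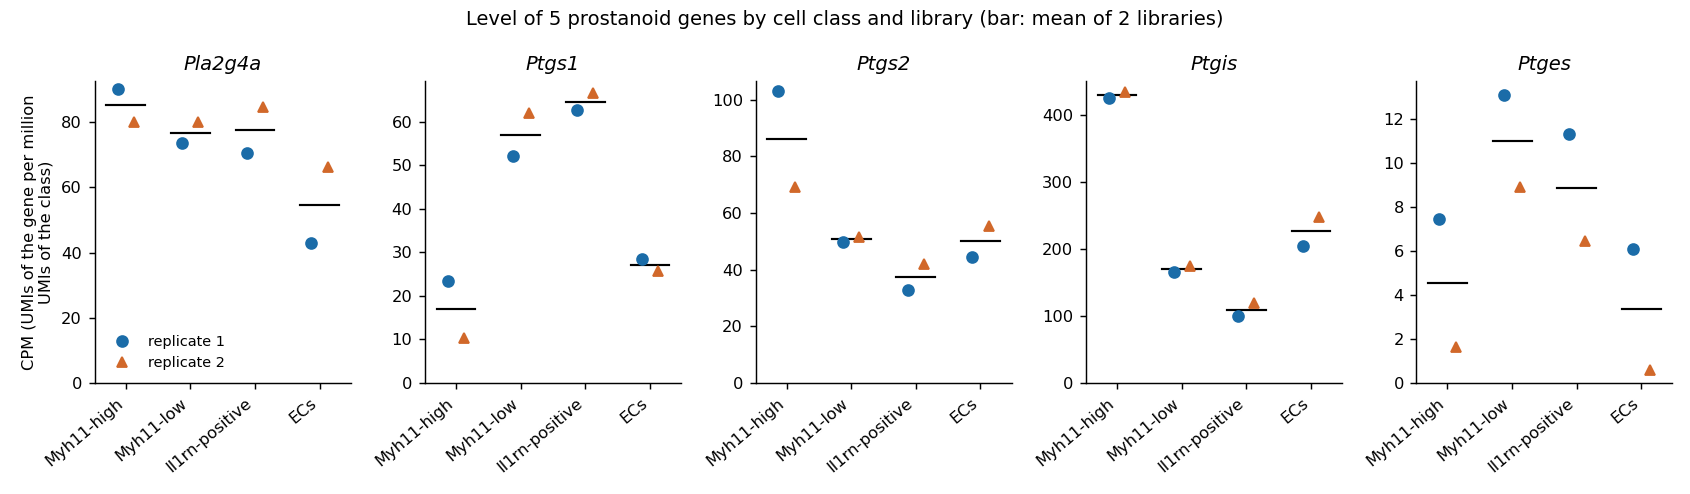
The plot gives the level of 5 members in CPM (y axis, from 0) in the 4 classes (x axis), with 1 point per library (circle, replicate 1; triangle, replicate 2) and a bar at the mean. Ptgis and Ptgs2 are highest in Myh11-high cells, Ptgs1 is at 10.2 to 28.5 CPM in Myh11-high cells and ECs and at 52.1 CPM or more in the other classes, and Ptges is higher in replicate 1 throughout.

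Ptgds, the lipocalin-type prostaglandin D synthase, was close to absent. Replicate 1 held 0 of its UMIs in 4866 cells and replicate 2 held 12 in 11 cells, of which 5 were Myh11-high, 4 were intermediate and 2 were Myh11-low. The count of 0 in replicate 1 allows a share of cells with a UMI of up to 0.708% of Myh11-high and 0.0987% of Myh11-low cells, for counting error only, and the 0.574% of Myh11-high cells in replicate 2 (exact 95% binomial interval from 0.187% to 1.33%) lies within the former. Over all cells the limit in replicate 1 is 0.0617%. The share of 0.161% in replicate 2 (exact 95% binomial interval from 0.0805% to 0.288%) lies above that limit. Ptgds did not pass edgeR's filter on low counts, and the other 6 members did.

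Hpgd, the enzyme that oxidizes and thereby inactivates prostaglandins, was rare and concentrated in few cells. It had 55 UMIs in 18 cells of replicate 1 and 94 UMIs in 43 cells of replicate 2, and 0 in the ECs of either library, which allows 2.94% and 2.13% of ECs with a UMI. Its fitted log2 fold changes had standard errors of 0.92 or more and none passed the threshold. Cells with UMIs of at least 4 of the 10 macrophage markers, a limit chosen after the values were seen, numbered 13 and 5. They held 46 of the 55 Hpgd UMIs of replicate 1 and 12 of the 94 of replicate 2, at 99.7 and 134 CPM against 0.0756 and 0.663 CPM in all other cells. In replicate 1 all 9 cells with 2 or more Hpgd UMIs were such cells. Replicate 2 differed, since 11 of its 15 cells with 2 or more Hpgd UMIs were not macrophage-marker cells and held 55 UMIs, 10 of the 11 had no UMI of any macrophage marker, and none had a Myh11 UMI. Some other genes of the pathway were also high in the macrophage-marker cells, and others were not. Hpgds, the hematopoietic prostaglandin D synthase, was at 106 and 191 CPM against 0.269 and 0.469 CPM elsewhere, the thromboxane synthase Tbxas1 at 26.0 and 33.6 CPM against 0.0336 and 0.0243 CPM, and Alox5ap, which presents arachidonic acid to 5-lipoxygenase, at 176 and 191 CPM against 4.22 and 2.29 CPM. Pla2g4a, at 73.7 and 56.0 CPM, was near its level of 72.8 and 80.3 CPM in the other cells, and Ptgis was lower, at 84.5 and 56.0 CPM against 179 and 223 CPM. Ptgs2 was at 30.3 and 0 against 50.6 and 54.9 CPM, Ptgs1 at 52.0 and 11.2 against 50.3 and 50.4 CPM, and Ltc4s, the leukotriene C4 synthase, at 2.17 and 0 against 1.12 and 1.68 CPM. In the 5 marker cells of replicate 2 these levels rest on few UMIs. They were 5 each for Pla2g4a and Ptgis, 3 for Tbxas1, 1 for Ptgs1 and 0 for Ptgs2, and Ltc4s had 1 and 0 in replicates 1 and 2. In replicate 1 the marker cells were deep, with a median of 38640 UMIs against 22234.5 over all cells (16805 against 16310 in replicate 2), and they held 1324 and 549 CPM of the smooth muscle actin Acta2 against 5237 and 4320 CPM elsewhere. The part of doublets in these values was not tested. These cells gave 79.2% and 78.2% of all UMIs of Lyz2, a macrophage lysozyme that is not on the list. Of them, 9 and 2 were Il1rn-positive and 3 in each library were Myh11-low. When they were left out, an alternative added after the data were seen, Hpgd no longer passed the filter on low counts and the number of members called was the same in all 4 comparisons.

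**Figure D2:**
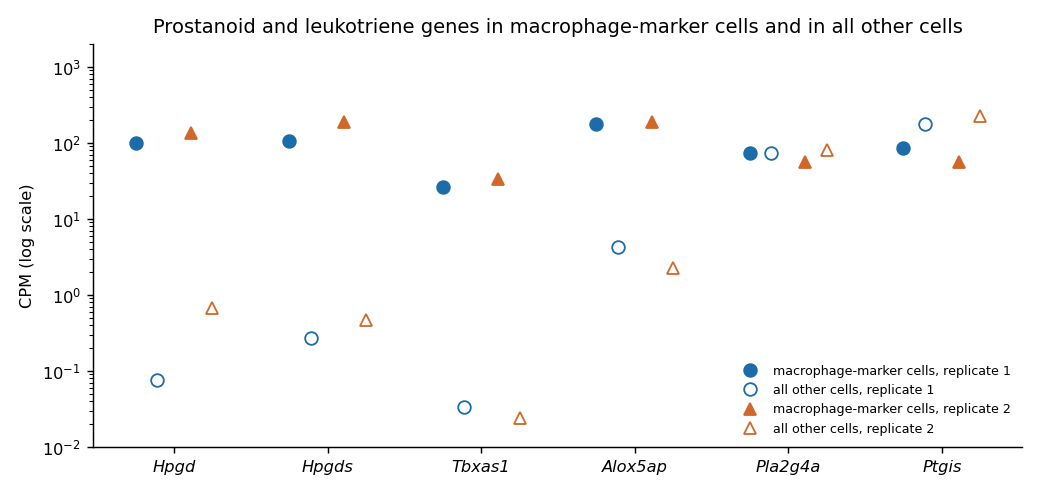
The plot gives CPM on a log scale (y axis) for 6 genes (x axis) in the 13 and 5 macrophage-marker cells (filled) and in all other cells (open) of replicates 1 (circles) and 2 (triangles). Hpgd, Hpgds and Tbxas1 are at 26.0 to 191 CPM in the marker cells and at or below 0.663 CPM elsewhere, while Pla2g4a and Ptgis lie close together or lower.

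Among the 6 members tested, 2 passed the threshold between Myh11-high and Myh11-low cells (Ptgis higher, Ptgs1 lower), where 4.37% of all genes tested did. With the library as a block 4 did (Ptgis and Ptgs2 higher, Ptgs1 and Ptges lower), against 22.9% of all genes. Between Il1rn-positive and Myh11-low cells edgeR called 0 of 13404 genes (0%) and 0 members. An unadjusted p under 0.05 was found for 482 genes, among them 1 member, Ptgis. In this fit without a block these are fewer genes than the share of 0.05 that tests without any difference would give. With the library as a block, 1417 of the 13404 genes had an unadjusted p under 0.05 in edgeR, which is above that share. Among these genes were 3 members. DESeq2 called 44 genes and the block 52 (0.388%), and Ptgis was the member in both. For ECs against Myh11-low cells 0 of 6 members passed in edgeR, 3 had an unadjusted p under 0.05 (Ptgs1, Ptgis and Pla2g4a), and 19.8% of all genes passed. DESeq2 called 1 member beside 2976 of 13404 genes, and the block called 4 (Pla2g4a, Ptgs1 and Ptges lower, Ptgis higher) beside 35.2% of all genes. For ECs against Myh11-high cells 3 members passed, Pla2g4a, Ptgs2 and Ptgis, all lower, in a comparison where 21.4% of all genes passed without and 34.5% with the block, which called the same 3.

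**Figure D3:**
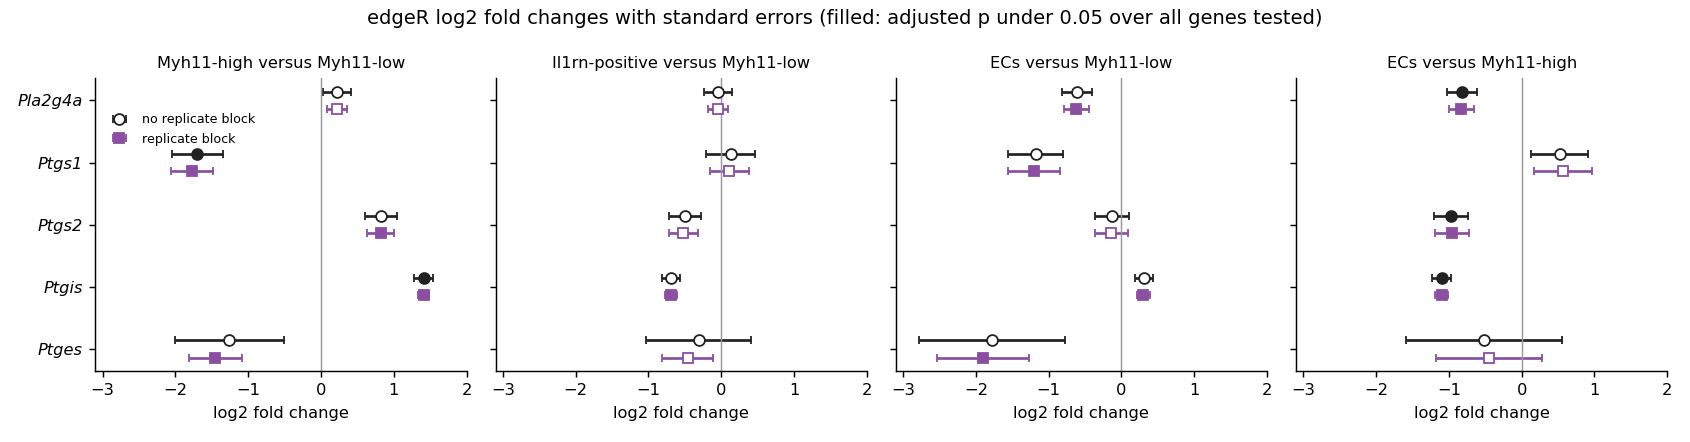
The plot gives edgeR log2 fold changes (x axis) with standard errors (bars) for 5 members (y axis) in the 4 comparisons, without (circles) and with the library as a replicate block (squares), and filled symbols had an adjusted p under 0.05. Ptgis lies at 1.41 and Ptgs1 at -1.70 in Myh11-high against Myh11-low cells, and more symbols are filled with the block.

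The levels changed in steps along the number of Myh11 UMIs per cell. Ptgis rose in replicate 1 from 167 CPM in cells with 0 Myh11 UMIs to 230, 371 and 664 CPM in cells with 5 to 9, 10 to 19 and 20 or more, and in replicate 2 from 172 CPM to 389, 466 and 493 CPM. Ptgs1 fell over the same cells from 52.8 CPM to 39.0, 21.4 and 9.66 CPM in replicate 1 and from 63.8 CPM to 13.3, 8.07 and 6.28 CPM in replicate 2. These values lie along the axis of the Myh11 gates and were not tested. The libraries parted in the intermediate cells, which had 17.2 CPM of Ptgs1 and 305 CPM of Ptgis in replicate 2 but 41.9 and 162 CPM in replicate 1, close to cells without Myh11. Ptges went from 13.1 to 3.62 CPM and from 9.19 to 1.74 CPM. Ptgs2 was at up to 144 CPM at 20 or more Myh11 UMIs in replicate 1, whereas in replicate 2 it reached 88.1 CPM at 10 to 19 and was at 38.4 CPM in the 118 cells with 20 or more.

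**Figure D4:**
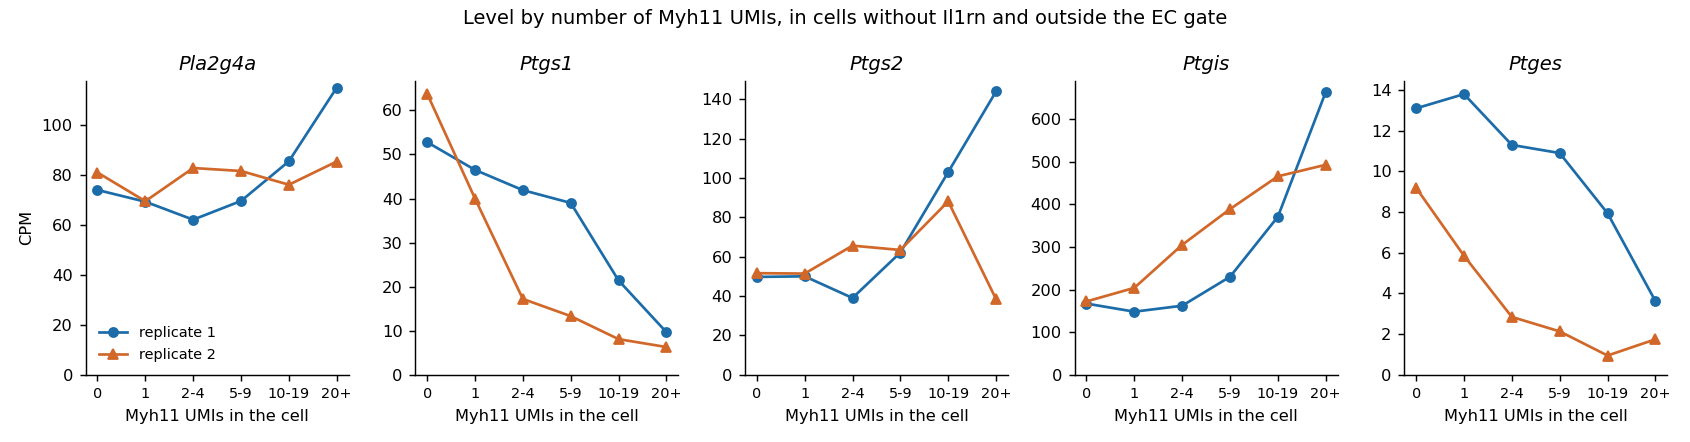
The plot gives CPM (y axis, from 0) of 5 members in cells grouped by their number of Myh11 UMIs (x axis), in replicate 1 (circles) and replicate 2 (triangles). Ptgis rises and Ptgs1 falls with Myh11 in both libraries, and Ptgs2 ends at 144 CPM in replicate 1 and 38.4 CPM in replicate 2.

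Ptgs2 was less evenly spread over the cells than Ptgs1 at a like count (6030 and 6790 against 6010 and 6235 UMIs). The 5% of cells with the most Ptgs2 UMIs held 47.4% and 44.9% of them. This share was 29.2% and 35.1% for Ptgs1, 28.0% and 21.7% for Ptgis and 25.8% and 25.7% for Pla2g4a. It rises as a gene gets sparser, so the 44.8% and 58.0% of Ptges, with 1416 and 885 UMIs, cannot be ranked beside these. The same limit holds in Myh11-high cells of replicate 2, with 70.6% for Ptgs1 (197 UMIs) and 37.9% for Ptgs2 (1331 UMIs). Single cells had up to 68 Ptgs2 UMIs in replicate 1 and 35 in replicate 2. The EC levels rest on few cells, since 6 of 102 and 8 of 141 ECs held 64.4% and 62.9% of the Ptgs2 UMIs of their class. For Ptgs1 these shares were 53.6% and 48.9%, for Pla2g4a 42.9% and 49.1%, and for Ptgis 27.4% and 23.2%. The part of doublets in them was not tested. A Ptgs2 UMI was found in 50% and 46.5% of Myh11-high, 35.9% and 31.4% of Myh11-low, 32.3% and 28.7% of Il1rn-positive cells and 25.5% and 20.6% of ECs. As a measure of background, Pecam1, which belongs to ECs, was found in 1.02% and 0.790% of Myh11-low cells. The other EC gate genes were found in 0.987% and 0.553% (Gja4), 0.197% and 0.277% (Cdh5), and 0.263% and 0.119% (Cldn5). By the free RNA estimate, which may be too high, free RNA alone would give 5.36% and 4.80% of Myh11-low cells a Ptgs2 UMI. Thinned to 3000 UMIs per cell, the shares of Ptgs2 were 18.5% and 14.8% in Myh11-high, 10.4% and 10.9% in Myh11-low, 8.01% and 8.72% in Il1rn-positive cells and 8.14% and 9.54% in ECs, and the order of ECs and Il1rn-positive cells changed. Cells without Mki67 and Top2a, genes of dividing cells, had more Ptgs2 than those with a UMI of either. In Myh11-high cells they were at 120 against 89.9 CPM in replicate 1 and 86.5 against 56.6 CPM in replicate 2, and in Myh11-low cells at 57.6 against 44.1 and 52.5 against 50.6 CPM. Pla2g4a was also higher in cells without these genes, at 106 against 78.5 and 86.9 against 75.0 CPM in Myh11-high cells. In Myh11-low cells Pla2g4a was at 77.3 against 70.8 and 84.7 against 75.0 CPM. Ptgs1, Ptgis and Ptges went both ways. Cells with a UMI of Mki67 or Top2a were also deeper, and this split was not matched on total UMIs. Their medians were 30088 against 22999.5 and 23510 against 18070 UMIs in Myh11-high cells of replicates 1 and 2. In Myh11-low cells they were 25421 against 19213.5 and 17961 against 14290 UMIs.

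Pla2g4a, the neighbour of Ptgs2, was higher in cells with a Ptgs2 UMI than in cells of the same class and library without one, after these were matched 1 to 1 on total UMIs. In Myh11-low cells its CPM was 90.1 with and 61.7 without Ptgs2 in 1011 matched pairs of replicate 1, and 102 and 65.5 in 1530 pairs of replicate 2. In Myh11-high cells it was 122 and 50.2 in 167 pairs, and 93.6 and 67.9 in 361 pairs. The ratio was 1.46, 1.56, 2.43 and 1.38, above 1 in 4 of 4 class and library pairs. Ptgs1 did not follow this pattern, with ratios of 0.993, 1.15, 0.531 and 1.97, nor did Ptgis, with 1.12, 1.13, 2.26 and 0.899. The immediate early gene Fos had 1.07, 0.974, 0.628 and 0.917. Ptges had 0.762, 0.969, 0.307 and 0.894, below 1 in 4 of 4 pairs. The part of cell division in the ratio of Pla2g4a was not tested. Ptges was higher in cells with a Ptgs1 UMI than in matched cells without one, with ratios of 1.44 and 1.45 in Myh11-low cells and of 2.78 and 6.98 in Myh11-high cells, the last on 4.88 against 0.699 CPM. The cells with Ptgs1 also had less Acta2 (ratios of 0.783 and 0.703 in Myh11-low and 0.648 and 0.764 in Myh11-high cells) and more of the cytokine gene Il6 (1.33 and 1.06, and 1.99 and 2.99), and Fos had 1.21 and 0.998, and 1.44 and 2.67. Il6 was sparse, with 5.69 against 5.36 CPM behind the ratio of 1.06 and 3.14 against 1.05 CPM behind 2.99. In the same order, the ratios were 0.865, 0.955, 0.337 and 0.784 for Ptgis and 0.875, 1.14, 0.386 and 0.724 for Ptgs2. For Pla2g4a they were 0.926, 1.06, 0.680 and 0.847. The part of these genes in the ratio of Ptges between cells with and without Ptgs1 was not tested. The cells of a library are not replicates, and these ratios carry no test.

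**Figure D5:**
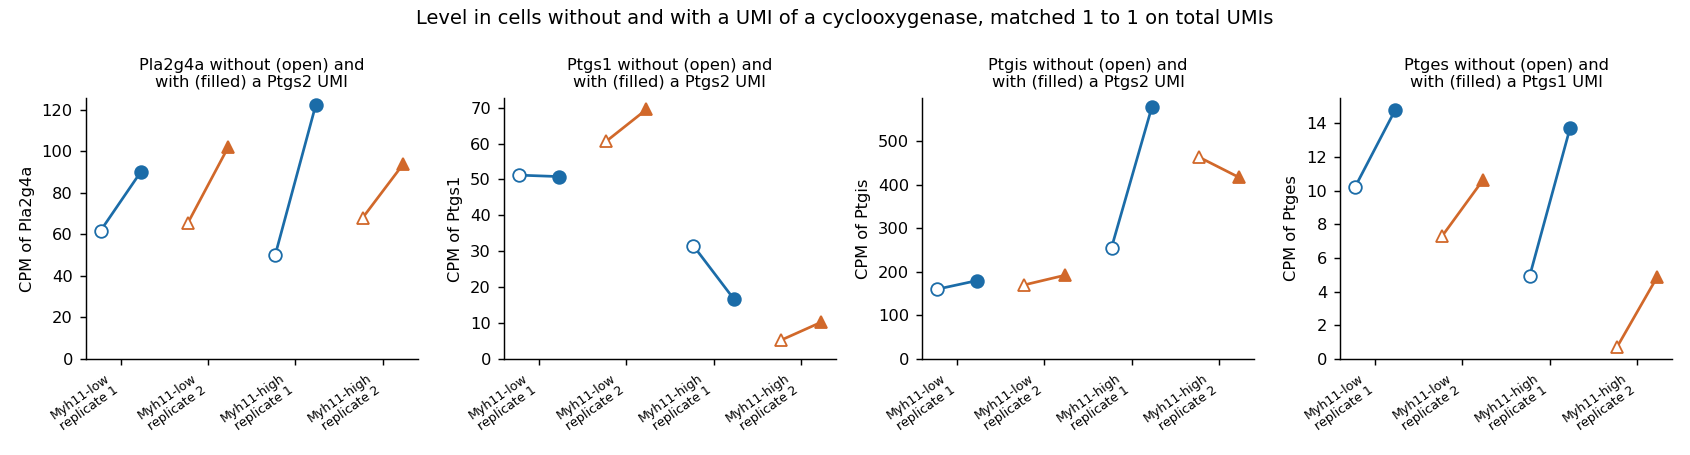
The plot gives the CPM (y axis, from 0) of Pla2g4a, Ptgs1 and Ptgis in cells without (open) and with (filled) a Ptgs2 UMI, and of Ptges in cells without and with a Ptgs1 UMI, in Myh11-low and Myh11-high cells of replicates 1 (circles) and 2 (triangles). The Pla2g4a and Ptges lines rise in all 4 pairs, and those of Ptgs1 and Ptgis go both ways.

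The genes whose levels correlated best with those of a member over the 8 class and library sums were Lpar1, a lysophosphatidic acid receptor, for Ptgs1 (Pearson r of log2 CPM 0.985), Scrib for Ptgs2 (0.961), Clic4 for Ptgis (0.985), Pdzrn3 and Thy1 for Ptges (0.980 each), Tfpt for Pla2g4a (0.996) and Rab32 for Hpgd (0.968). Correlation leaves out the size of a difference. Scrib ran only from 11.6 to 15.3 CPM over the sums, where Ptgs2 ran from 32.6 to 103 CPM, and Tfpt only from 11.2 to 15.3 CPM. The correlation was searched over 8103 genes with a mean of at least 10 CPM, the 4 sums of a library share a culture, and no p is given. Lpar1 was at 29.5 and 12.7 CPM in Myh11-high cells, 70.9 and 72.7 CPM in Myh11-low cells, 71.0 and 74.5 CPM in Il1rn-positive cells and 26.5 and 28.6 CPM in ECs. Dmd, the dystrophin gene and next to Clic4 for Ptgis (0.981), was at 73.7 and 72.4 CPM in Myh11-high cells, 17.8 and 28.6 CPM in ECs, 11 and 11.6 CPM in Myh11-low cells and 7.60 and 8.60 CPM in Il1rn-positive cells.

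Other genes of arachidonic acid release were called in 3 of the 4 comparisons. Of 11 phospholipases and lipases tested, 1 was higher in Myh11-high than in Myh11-low cells, the monoacylglycerol lipase Mgll, which was at 89.8 and 128 CPM against 42.3 and 45.4 CPM (log2 1.37, SE 0.24, edgeR adjusted p = 0.0301). The list's median was -0.04, against -0.01 over all genes, and with the block 3 were higher and 1 was lower. Of all genes 4.37% were called there without and 22.9% with the block. In ECs against Myh11-low cells 4 were higher (Pla2g6, Pla2g12a, Pla2g16 and Plcg1) and 1 lower (Pla2g15), with a median of 0.12 against -0.05. These 5 of 11 stand beside 19.8% of all genes called there, and with the block 4 were higher and 2 lower, beside 35.2% of all genes. Plcg1, a phospholipase C that acts in receptor signaling, was at 36.7 and 37.1 CPM in ECs and 13.4 and 14.1 CPM in Myh11-low cells, and Pla2g16 at 60.1 and 46.8 against 20.3 and 26.7 CPM. Against Myh11-high cells 2 were higher in ECs (Pla2g6 and Plcg1) and 2 lower (Pla2g15 and Mgll), with a median of 0.17, beside 21.4% of all genes, and with the block Pla2g12a was higher too. None passed in Il1rn-positive cells, without or with the block, where the median was -0.07.

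None of 7 other terminal synthases passed the threshold in any comparison, with medians between -0.10 and 0.01. Ptges3, a cytosolic prostaglandin E synthase and cochaperone, had a log2 fold change of 0.06 (SE 0.13) in Myh11-high against Myh11-low cells and of 0.07 (SE 0.13) in ECs against Myh11-low cells. With the block Akr1b3 (log2 0.51, edgeR adjusted p = 0.0437) was higher and Cbr1, a carbonyl reductase (log2 -0.76, edgeR adjusted p = 0.00291), was lower in Myh11-high cells, and Akr1b8 and Fam213b were lower in ECs than in Myh11-low cells. ECs against Myh11-high cells had 1 higher, Cbr1, and 1 lower, Akr1b8, with the block. In these comparisons the block called 22.9%, 35.2% and 34.5% of all genes, and the fit without it 4.37%, 19.8% and 21.4%.

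Of 6 genes of transport and inactivation, 2 were higher and 1 was lower in ECs than in Myh11-low cells, and the same held against Myh11-high cells, while 0 passed in the other comparisons. These EC counts stand beside 19.8% and 21.4% of all genes called. The counts of 0 stand beside 4.37% between the Myh11 classes and 0% for Il1rn-positive cells. The prostaglandin transporter Slco2a1, which takes prostaglandins up, was at 196 and 227 CPM in ECs, 67.0 and 49.7 CPM in Myh11-low and 53.9 and 51.0 CPM in Myh11-high cells. ECs were 1.75 above Myh11-low cells on the log2 scale (SE 0.23, edgeR adjusted p = 0.00264). The exporter Abcc4 was 1.87 higher (SE 0.38, edgeR adjusted p = 0.0160), and Ptgr1, a prostaglandin reductase, was 1.83 lower in ECs (SE 0.27, edgeR adjusted p = 0.00423). The list's medians were -0.35 in Myh11-high against Myh11-low cells, -0.23 in Il1rn-positive cells, and -0.24 and -0.21 in ECs against Myh11-low and Myh11-high cells. With the block Abcc4, Ptgr1 and Cbr3 were lower and Slco3a1 was higher in Myh11-high than in Myh11-low cells, and 2 genes were higher and 2 lower in ECs against either class. The block called 22.9% of all genes between the Myh11 classes, and 35.2% and 34.5% for ECs against Myh11-low and Myh11-high cells.

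Among 6 prostanoid receptor genes tested of 10, the EP4 receptor gene Ptger4 was at 13.2 and 20.6 CPM in ECs, 1.70 and 1.77 CPM in Myh11-low cells and 1.47 and 0.884 CPM in Myh11-high cells. It was higher in ECs by 3.17 on the log2 scale than in Myh11-low cells (SE 0.44, edgeR adjusted p = 0.00356) and by 3.69 than in Myh11-high cells (SE 0.48, edgeR adjusted p = 0.00262). Ptgfrn, which encodes a protein associated with the prostaglandin F receptor, was 1.10 lower in ECs than in Myh11-low cells (SE 0.17, edgeR adjusted p = 0.00543). The prostacyclin receptor gene Ptgir was at 2.69 and 3.1 CPM in Myh11-low cells, with 196 and 275 UMIs, and at 1.21 and 0.572 CPM in Myh11-high cells, with 14 and 11 UMIs. Its log2 fold change between them was -1.68 (SE 0.50, edgeR adjusted p = 0.122, 0.0191 with the block), opposite in sign to that of the synthase gene Ptgis. The prostaglandin F receptor gene Ptgfr passed the threshold in the same comparison (log2 -2.59, SE 0.52, edgeR adjusted p = 0.0427) on only 1 and 3 UMIs in Myh11-high cells. Its ratio of CPM there to that in Myh11-low cells was 0.105 in replicate 1 (exact 95% interval from 0.00263 to 0.610) and 0.187 in replicate 2 (from 0.0377 to 0.569), for counting error only. The thromboxane receptor gene Tbxa2r differed between the libraries, with 37.4 and 17.5 CPM in Myh11-low and 33.6 and 26.2 CPM in Myh11-high cells, and its log2 fold change was 0.18 (SE 0.50). For ECs the log2 fold change of Tbxa2r was -1.80 against Myh11-low cells (edgeR adjusted p = 0.0972, 0.00406 with the block) and -1.98 against Myh11-high cells (edgeR adjusted p = 0.0742, 0.00203 with the block). The list's median was -0.80 between Myh11-high and Myh11-low cells, 0.15 in Il1rn-positive cells, where 0 passed, and -1.45 and -0.65 in ECs against Myh11-low and Myh11-high cells. With the block 3 of the 6 receptor genes were lower in Myh11-high than in Myh11-low cells (Ptgfrn among them, at 0.0592 without and 0.00368 with the block in edgeR), and ECs had 1 higher and 2 lower against Myh11-low and 1 higher and 1 lower against Myh11-high cells. Of all genes, 4.37%, 19.8% and 21.4% were called in these comparisons without and 22.9%, 35.2% and 34.5% with the block.

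Lipoxygenases and the leukotriene branch are another route from arachidonic acid, and 4 of 8 listed genes were tested. Alox5, with 1 UMI in each library, was not among them. Of the 4, 3 were higher in ECs than in either Myh11 class, beside 19.8% and 21.4% of all genes called there. In the other comparisons 0 passed, beside 4.37% of all genes between the Myh11 classes and 0% for Il1rn-positive against Myh11-low cells. The 3 genes higher in ECs were Alox5ap (log2 1.81 over Myh11-low cells, SE 0.42, edgeR adjusted p = 0.0249), the lipoxygenase Alox12 (2.95, SE 0.69, edgeR adjusted p = 0.0261, on 4 and 3 UMIs in ECs) and the leukotriene C4 synthase Ltc4s (2.17, SE 0.59, edgeR adjusted p = 0.0441). Lta4h, which makes leukotriene B4, was at 28.0 and 33.1 CPM in ECs and 22.6 and 21.2 CPM in Myh11-low cells (log2 0.37, SE 0.15, edgeR adjusted p = 0.127). Medians of the list were 1.99 and 2.86 in ECs against Myh11-low and Myh11-high cells, -0.58 in Myh11-high cells, where 2 were lower with the block, and 0.09 in Il1rn-positive cells. Between the Myh11 classes the block called 22.9% of all genes.

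Ptgs2 is also known as a target of inflammatory signals and of the stimuli that induce immediate early genes. The summed level of 7 such genes (Fos, Fosb, Jun, Junb, Egr1, Ier2 and Atf3) was 1496 and 794 CPM in Myh11-high cells, where Ptgs2 was highest, against 2129 and 1559 CPM in Myh11-low, 2439 and 1918 CPM in Il1rn-positive cells and 1445 and 1331 CPM in ECs. None of the 7 passed the threshold in any comparison, with medians of -0.60, 0.19, -0.48 and 0.20 in the 4 comparisons as ordered above, and with the block 5 were lower in Myh11-high than in Myh11-low cells, 1 was higher and 3 lower in ECs than in Myh11-low cells and 1 was higher in ECs than in Myh11-high cells. Beside these block counts, 22.9%, 35.2% and 34.5% of all genes were called, and 4.37%, 19.8% and 21.4% without the block. Jun and Atf3 had log2 fold changes of 0.06 (SE 0.27) and 0.20 (SE 0.79) in Myh11-high against Myh11-low cells, the sign of Ptgs2. The sum of 15 inflammatory genes was 456 and 260 CPM in Myh11-high, 737 and 594 CPM in Myh11-low, 971 and 791 CPM in Il1rn-positive cells and 593 and 604 CPM in ECs. Of the 12 tested, the chemokine gene Cxcl5 was lower in Myh11-high than in Myh11-low cells, at 0.0867 and 0.208 against 2.99 and 2.81 CPM (log2 -4.08, SE 0.45, edgeR adjusted p = 0.00566), and 11 did not pass. With the block 5 were lower, namely Cxcl5, Il1r1, Il6, Nfkbia and Cebpb, the last at an edgeR adjusted p of 0.114 without and 0.00133 with it. Of all genes 4.37% were called in that comparison without and 22.9% with the block. The Myh11-high values of Cxcl5 rest on 1 and 4 UMIs, and the ratio was 0.0290 (exact 95% interval from 0.000731 to 0.163) and 0.0741 (from 0.0200 to 0.192). In ECs Cebpb and Tnfaip6 were lower than in Myh11-low cells, and Nfkbia and Ccl2 were higher and Tnfaip6 lower than in Myh11-high cells, while with the block 1 was higher and 4 lower against Myh11-low and 2 were higher and 2 lower against Myh11-high cells. The shares of all genes called in these EC comparisons were 19.8% and 21.4% without and 35.2% and 34.5% with the block. The list's medians were -0.80, 0.47, -1.12 and 0.31 in the same order. None passed in Il1rn-positive against Myh11-low cells, where the interleukin-1 receptor gene Il1r1 had a log2 fold change of 0.98 (SE 0.71, edgeR adjusted p = 1.00, 0.0245 with the block). The part of immediate early and inflammatory genes in the levels of Ptgs2 was not tested.

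Markers of other cells moved with some of the classes. Their counts stand beside 4.37% of all genes called between the Myh11 classes, and 22.9% with the block. For ECs against Myh11-low and Myh11-high cells the shares were 19.8% and 21.4%, and 35.2% and 34.5% with the block. For Il1rn-positive against Myh11-low cells they were 0% without and 0.388% with the block. The 6 fibroblast-like markers summed to 1876 and 914 CPM in Myh11-high, 2288 and 1881 CPM in Myh11-low cells and 799 and 421 CPM in ECs. Of them 0 passed between Myh11-high and Myh11-low cells (median -1.61) and 0 in Il1rn-positive cells (-0.08), while 1 was higher, Pi16, and 1 lower, Pdgfra, in ECs against Myh11-low cells, and Pi16 was higher in ECs than in Myh11-high cells. With the block 3 fibroblast-like markers were lower in Myh11-high than in Myh11-low cells (edgeR adjusted p = 0.0359 for Dcn, 0.0111 for Pdgfra and 0.0105 for Pi16), and 5 were lower in ECs than in Myh11-low cells and 1, Col1a1, than in Myh11-high cells. Of 8 macrophage markers tested, Tyrobp was lower in Myh11-high than in Myh11-low cells (3 lower with the block), 0 passed in Il1rn-positive cells (median 3.17, 3 higher with the block), and in ECs Cd68 and Cd14 were higher than in both Myh11 classes and Tyrobp was lower than in Myh11-low cells. Schwann markers summed to at most 32.0 CPM in any class, where of 2 tested S100b was lower in ECs than in Myh11-low cells, and with the block in Myh11-high cells too (edgeR adjusted p = 0.0600 without and 0.0109 with it). Mesothelial markers summed to at most 9.48 CPM, and the 1 tested, Krt19, did not pass without the block and was lower in ECs than in Myh11-high cells with it (edgeR adjusted p = 0.0999 and 0.0435). Of the 4 cycling markers, Ccnb1 was lower in ECs than in either Myh11 class (3 lower than in Myh11-high cells with the block) and 0 passed in the other comparisons, with sums of 604 and 651 CPM in Myh11-high, 617 and 499 CPM in Myh11-low, 741 and 677 CPM in Il1rn-positive cells and 375 and 524 CPM in ECs. Of the 9 EC markers, Esam was also higher in Myh11-high than in Myh11-low cells (with the block 3 others were lower). Of the 8 contractile markers 7 were lower in ECs than in Myh11-high cells (8 with the block) and 0 than in Myh11-low cells (4 with the block), and 6.86% and 2.84% of ECs had a Myh11 UMI. In ECs without a Myh11 UMI, an alternative added after the data were seen, Ptgs1 and Pla2g4a passed the threshold against Myh11-low cells (log2 -1.33 and -0.62, edgeR adjusted p = 0.0470 and 0.0464). Of all genes, 3127 of 13368 passed in that fit. The part of these cells in the members' levels was not tested.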

How the data were processed

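The authors aligned the reads with Cell Ranger and deposited raw UMI counts per gene and barcode, without normalization or a selection of cells. The submitters' processing notes name Cell Ranger 3.0.2 and mm10, the matrix of replicate 1 names 3.0.2, and the matrix of replicate 2 names 3.1.0, a difference that could not be resolved here. Of the 31053 gene identifiers, 30934 were found in GENCODE M21 (GRCm38), and promoters were taken from the RefSeq table of GRCm38.p6, which has no entry for Ptgis. The libraries held 127949633 and 132561822 UMIs and were separate, with a median chi-square between them of 19.9 over 13204 genes. The members, gates and gene lists were chosen with earlier results of these data known, and the choice supports nothing by itself.

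UMIs were summed per library and class (8 sums, 2 for each of 4 classes), since cells of 1 library are not replicates. CPM were computed from these sums. They were tested with the quasi-likelihood test of edgeR 4.0.16 (R 4.3.3) after TMM scaling and filterByExpr, in 1 fit to all 8 sums, with Benjamini-Hochberg adjustment over all genes tested and a threshold of 0.05. The SE is the log2 fold change divided by the square root of F. DESeq2 1.42.0 was an alternative. The procedure was tested on simulated data, in which all 8 sums were drawn independently. That simulation held no library effect, so it cannot show how the fit without a block behaves when sums of a library correlate. A library number marks the same culture, and the deviations of same-library sums from their class means correlated at 0.259 to 0.69 in all pairs of classes, so the fit with the library as a replicate block is given beside the members, genes and list counts whose calls it changes. Pathway genes outside the members were named where they passed the threshold, where they were at 20 CPM or more in a class, or as comparisons for a member, the last chosen after their values were seen. A limit of 3 counts was used for values of 0.

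Barcodes with 1 to 100 UMIs gave the profile of free RNA. By the endothelial gate genes found outside the EC gate, it was put at 4.69% and 5.76% of UMIs. Gja4 was in 5.19% and 5.05% of Myh11-high cells, where free RNA would give 1.38% in both libraries. In Myh11-low cells Cdh5 (0.197% and 0.277%) was below the 0.814% and 0.642% given by free RNA, as was Cldn5. The shares from free RNA may thus be too high, and the fit with free RNA subtracted may remove too much. Thinned shares are the expected shares at 3000 UMIs per cell. Intervals cover counting error only. Doublets were not called, and leaving out the 5% of cells with the most UMIs was an alternative. For matched cells, total UMIs agreed within 5%. The other alternatives changed the scaling, the filters on genes and cells, the sums in the fit, the gates, cycling cells, free RNA and depth, as given at the end.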

Additional observations from a re-analysis of the deposited data

How the results depend on the processing

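With 2 libraries, calls near the threshold moved with the processing, and the cause was not tested beyond the construction of an alternative. Without replicate 1 or 2 a class has 1 sum, so these are values with no test. Between Myh11-high and Myh11-low cells, where 2 members and 586 genes were called, 1 member was called with only the sums of the classes compared (fewer samples), without the 5% deepest cells, with free RNA subtracted and with each gate alone, and 4 with the replicate block. The genes called were 1219 in DESeq2, 98 with only the sums of the classes compared, 3076 with the block and 914 with Myh11 gates in CPM (250 or more against under 50). They were 581 without the 5% deepest cells, 595 with free RNA subtracted and 536 with each gate alone. Between Il1rn-positive and Myh11-low cells, with 0 members and 0 genes called, DESeq2 called 1 member and 44 genes and the block 1 member and 52 genes. For ECs against Myh11-low cells, with 0 members and 2660 genes called, 3 alternatives each gave 1 member. They were DESeq2 (2976 of 13404 genes called), only the sums of the classes compared (2228 of 13907) and leaving out the 5% deepest cells (3082 of 13268). The block gave 4 members and 4721 genes. ECs without a Myh11 UMI, added after the data were seen, gave 2 members and 3127 of 13368 genes. For ECs against Myh11-high cells, with 3 members and 2863 genes called, only the sums of the classes compared gave 1 member and 2120 of 11919 genes. The block gave 4619 genes there. The log2 fold changes that turned were those of Pla2g4a in Il1rn-positive against Myh11-low cells (0.14 without cycling cells, from -0.04), Ptgs2 in ECs against Myh11-low cells (0.20 with cells matched on UMIs, from -0.13) and Hpgd in ECs against Myh11-high cells (0.04 in DESeq2, from -4.52), none of which passed the threshold. Over the log2 fold changes of single members, 314 of 341 tested alternatives kept their direction and side of the threshold, 9 lost and 15 gained a call and 3 turned. Most of these belong to values not called in the main fit, which had no call to lose. Between the Myh11 classes Ptgs1 kept its call in 10 of 15 alternatives and Ptgis in 15 of 15. In ECs against Myh11-high cells Pla2g4a kept it in 11 of 14, Ptgs2 in 13 of 14 and Ptgis in 14 of 14. Of the untested log2 differences from 1 library, 34 lay within the SD of the 2 libraries around the fitted value and 14 beyond it. As this SD grows with the gap between the libraries, the count does not measure how well they agree. None changed sign in a called value. Levels in CPM moved by no more than the SD of the libraries in 81 of 84 alternatives. The same limit of this SD holds here, and Ptgds in Il1rn-positive cells and ECs and Hpgd in ECs, at 0, could not move. Each gate alone was not run for Il1rn-positive cells, most of which would be in both sums, nor for ECs against Myh11-high cells. It was run for ECs against Myh11-low cells, although 97 of 102 and 138 of 141 ECs were in both sums there. That fit thus did not compare separate cells. At this depth the counts of Ptgds, Hpgd and Ptges in ECs, at 0 to 12 UMIs per library, limit what could be detected.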
